A study of Rattus norvegicus with 3 samples.

Results

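Peptides of the enkephalin and endorphin families act at the cell surface for a short time, because peptidases cut them into inactive pieces. The genes described here encode 10 peptidases, chosen by symbol: Mme, Npepps, Anpep, Ece1, Ece2, Lnpep, Dpp3, Thop1, Enpep and Prep. They were listed for their link to these peptides, and not all are described below as inactivating them. Whether each enzyme cuts the peptides applied here was not tested. All 10 were found, with 1 probe set each, among the 15037 named genes of the array. The cells were FRSK, a keratinocyte line derived from the skin of fetal rats. RNA was taken from 1 culture without peptide (control), from 1 culture given Met-enkephalin (Met-ENK) and from 1 culture given β-END(1-9), the N-terminal fragment of β-endorphin, both at 100 nM for 24 h. The 3 cultures shared the medium with 10% serum and the plating density. Vehicle and culture time of the control are not stated in the sources used here, and a single line may not stand for keratinocytes in skin. There was 1 array per condition, so no difference given here has a replicate check, no test between conditions was possible, and how precise any value is depends on that number. Both opioid peptides are substrates for some peptidases of this kind. The comparison addresses whether either peptide was followed by a different transcript level of the 10 enzymes.

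Neprilysin (Mme) and aminopeptidase N (Anpep) are the membrane enzymes best known for ending enkephalin signals: neprilysin cuts inside the peptide, and aminopeptidase N removes the N-terminal tyrosine. Dipeptidyl peptidase 3 (Dpp3) and the puromycin-sensitive aminopeptidase (Npepps) are cytosolic enzymes that also take enkephalins as substrates. In skin, neprilysin is known for the breakdown of neuropeptides such as substance P, and keratinocytes are known as a source of opioid peptides.

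On these arrays, the membrane enzymes Mme, Anpep and Enpep gave signals no higher than those of the array's background probe sets. So did Ece2, a relative of Ece1. The 4 mostly cytosolic enzymes Npepps, Prep, Dpp3 and Thop1, and the membrane enzymes Lnpep and Ece1, which also act inside vesicles, lay above them. These background probe sets, 23 in number, lay between 2.51 and 7.57 on the log2 scale. Of the 23, 22 held an identical value on all 3 arrays, so the limit is in effect the same value for each array. In all, 6 of the 10 genes were above 7.57 on each of the 3 arrays, and 4 (Mme, Anpep, Enpep and Ece2) were below it on each. Of all 15037 named genes, 40.9% were above this limit on the 3 arrays. No member (0 of 10) reached a 1.5-fold difference in any comparison between arrays. Of all named genes, 7.19% did between Met-ENK and control, 4.61% between β-END(1-9) and control, and 5.56% between the 2 peptides. With 10 members, a count of 0 is near these shares and is not a result about the peptidases. Among the 6 genes above background the widest difference was 0.33 on the log2 scale, for Lnpep between the Met-ENK and β-END(1-9) arrays. Signals of different probe sets depend on their probes as well as on the RNA, so the genes are not ranked by level. A signal within the background range does not show that the transcript was absent, and in bulk RNA fewer expressing cells and less RNA per cell cannot be told apart.

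**Figure D1:**
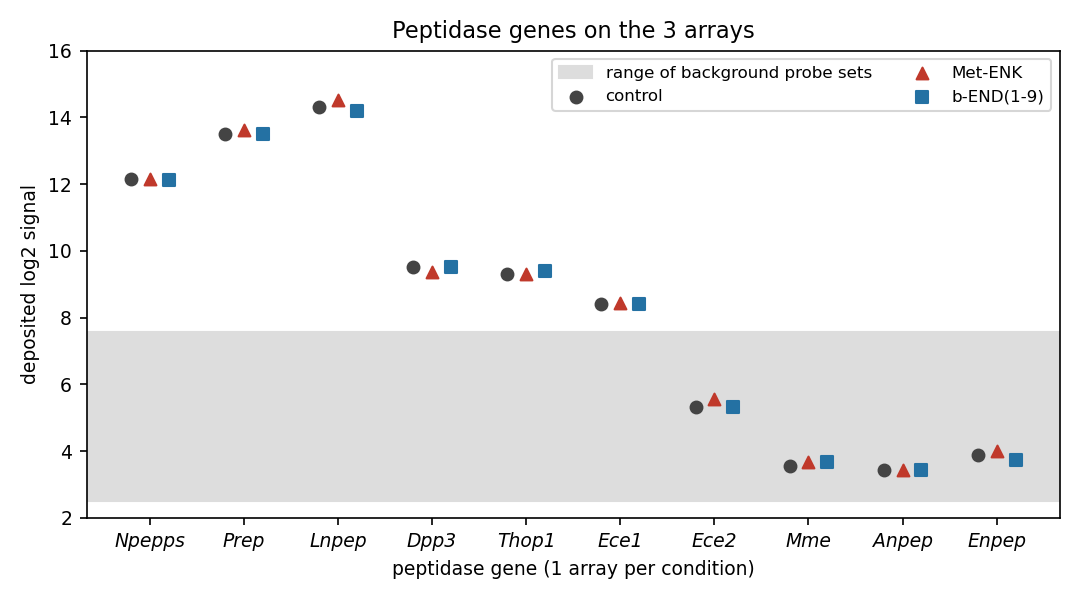
Deposited log2 signal (vertical axis) of each peptidase gene on the control (circles), Met-ENK (triangles) and β-END(1-9) (squares) arrays, 1 array per condition; the grey band spans the background probe sets, from 2.51 to 7.57. Npepps, Prep, Lnpep, Dpp3, Thop1 and Ece1 lie above the band on all 3 arrays, Ece2, Mme, Anpep and Enpep within it.

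The arrays served as a check of the cell label. All 9 measured keratinocyte markers were above the background range on all 3 arrays, Perp and Krt14 among them. The same held for 2 of 9 fibroblast markers (Col1a1 and Col3a1), 1 of 5 melanocyte markers (Mitf), 1 of 7 immune markers (Cd14) and 0 of 7 endothelial markers. Another fibroblast marker, Fbln1, was above the range on the control and Met-ENK arrays (7.85 on both) but not with β-END(1-9) (7.47). The median log2 signal over 23188 transcript clusters was 5.93 to 5.97 on the 3 arrays. Exactly equal deposited values on different arrays were common: among the 7519 genes that passed a filter on low values (mean log2 signal of at least 6.41, the median of the named genes), 11.8% had 1 value on all 3 arrays and another 32.7% had the same value on 2. All 6 members above the background range passed this filter and the other 4 did not.

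The promoters of the 10 genes, all of them found in RefSeq (GRCr8), were examined for sequence features shared by the 6 genes above the background range or the 4 within it. Over the 250 bases before the annotated start, 7 of the 10 were rich in CpG (a CpG count of at least 0.6 times that expected from the C and G content, and a GC content of at least 55%), against 42.9% of the 12435 array genes with a RefSeq promoter and 25.6% of all 33469 promoters. The 4 shown here, each 5′ to 3′ on the gene's strand with every CpG in capitals, are 1 of each kind: Npepps (above background, CpG-rich), Dpp3 (above background, not CpG-rich), Mme (within background, CpG-rich) and Anpep (within background, not CpG-rich). They lie at chr10:82770364-82770613 (minus strand), chr1:211657884-211658133 (minus strand), chr2:149872247-149872496 (plus strand) and chr1:143195102-143195351 (minus strand) of GRCr8.
Npepps: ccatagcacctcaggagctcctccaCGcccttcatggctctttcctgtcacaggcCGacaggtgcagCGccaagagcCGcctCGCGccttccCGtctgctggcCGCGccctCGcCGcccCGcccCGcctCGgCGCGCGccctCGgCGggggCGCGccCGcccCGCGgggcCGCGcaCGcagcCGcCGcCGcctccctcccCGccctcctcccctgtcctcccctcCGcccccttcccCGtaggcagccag
Dpp3: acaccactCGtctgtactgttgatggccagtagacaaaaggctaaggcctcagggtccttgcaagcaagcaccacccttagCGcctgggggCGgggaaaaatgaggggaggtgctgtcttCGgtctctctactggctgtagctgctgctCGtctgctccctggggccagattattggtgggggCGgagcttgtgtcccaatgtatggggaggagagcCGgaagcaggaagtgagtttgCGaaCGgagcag
Mme: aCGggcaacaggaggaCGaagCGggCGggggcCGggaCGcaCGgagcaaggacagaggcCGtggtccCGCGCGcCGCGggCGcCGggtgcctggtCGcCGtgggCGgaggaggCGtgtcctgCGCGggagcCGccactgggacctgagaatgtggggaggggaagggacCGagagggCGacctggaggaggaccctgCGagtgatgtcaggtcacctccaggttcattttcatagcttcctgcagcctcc
Anpep: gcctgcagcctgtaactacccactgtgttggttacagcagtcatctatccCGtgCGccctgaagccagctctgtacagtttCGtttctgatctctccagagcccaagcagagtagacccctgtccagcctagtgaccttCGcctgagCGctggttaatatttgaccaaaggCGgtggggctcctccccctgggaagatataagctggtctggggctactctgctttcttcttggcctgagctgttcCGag
The Npepps promoter held 33 CpG and the Mme promoter 25, against 9 for Dpp3 and 7 for Anpep, and the median of all promoters was 5. For Mme and Anpep the RefSeq gene record begins upstream of the start used here.

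Of the 6 genes above the background range, 5 had a CpG-rich promoter (Npepps, Prep, Lnpep, Ece1 and Thop1), and of the 4 within it, 2 did (Mme and Ece2). The CpG ratio ran from 0.36 in Anpep, 0.44 in Dpp3 and 0.55 in Enpep to 0.95 in Prep and 0.96 in Npepps. Among the 12435 array genes with a RefSeq promoter, 63.1% of those with a CpG-rich promoter were above the background range on all 3 arrays, against 26.1% of the others. This is a description across genes, which are not independent. The GC box (GGGCGG, which itself holds a CpG, searched on both strands) was present in 8 of the 10 promoters and missing from Anpep and Enpep, against 47.0% of array genes and 30.5% of all promoters. The CCAAT box (CCAAT, both strands) was in 4 of 10 (Ece1, Ece2, Dpp3 and Thop1), against 35.2% and 34.0%. The letters TATAA (both strands) were found in Anpep alone among the 10, against 20.1% of array genes and 24.0% of all promoters. The cAMP response element TGACGTCA and the AP-1 site TGAGTCA, on both strands, were in 0 of 10, against 2.36% and 3.56% of array genes. A match of letters does not show a bound factor, and its absence from this window says nothing of one.

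**Figure D2:**
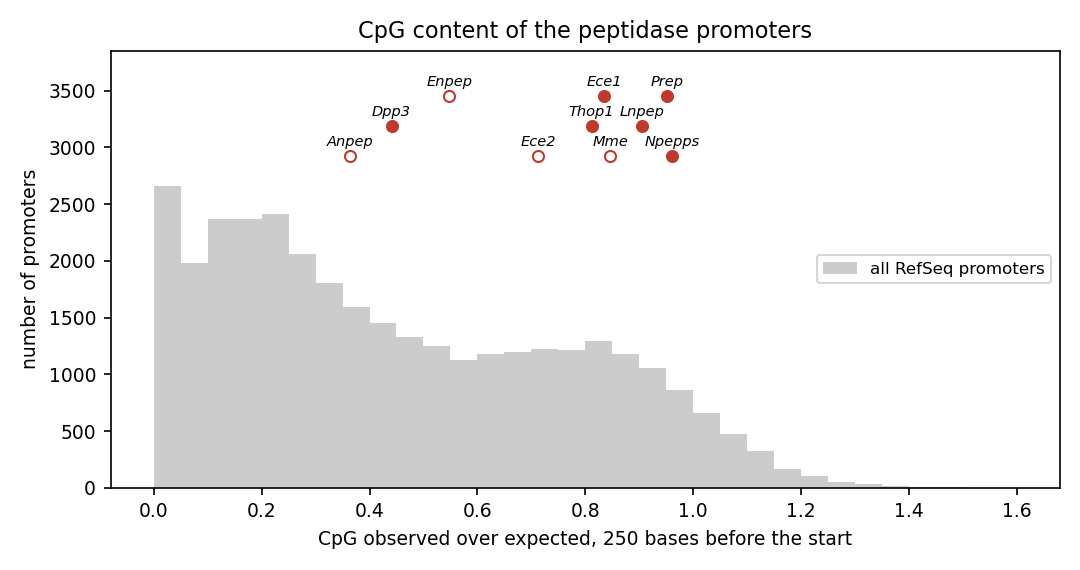
Ratio of observed to expected CpG over the 250 bases before the start (horizontal axis) for all 33469 RefSeq promoters (grey bars, number of promoters) and for the 10 peptidase genes (points, placed at arbitrary heights; filled, above background on all 3 arrays; open, within background). Anpep, Dpp3 and Enpep are the lowest, at 0.36 to 0.55, and the other 7 are between 0.71 and 0.96.

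Neprilysin and the aminopeptidases N and A, which face the outside of the cell, all lay within the background range. The control array read a log2 signal of 3.54 for Mme (probe set TC0200001252.rn.2), and the Met-ENK and β-END(1-9) arrays both read 3.69. The 2 peptide arrays held exactly the same deposited value, so both differences from control were 0.14. Of the genes not passing the filter, 41.1% had the same value on 2 arrays. The origin of such ties was not tested, so the 2 differences are not read as a pair. Anpep (TC0100005853.rn.2) had 3.44 on all 3 arrays, the same deposited value each time. Enpep, or aminopeptidase A (TC0200004673.rn.2), which removes acidic N-terminal residues and is known for trimming angiotensin II, had 3.87 on the control array, 4.02 on the Met-ENK array and 3.73 with β-END(1-9). The Enpep differences from control, 0.15 and -0.14, went in opposite directions, at a level where transcript and background cannot be separated. No fold change is given for these 3 genes.

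The endothelin-converting enzymes are relatives of neprilysin in the same metallopeptidase family, and they cut neuropeptides, some opioid peptides among them, as well as big endothelin. Ece1 (TC0500001734.rn.2) lay above the background range, with 8.41 on the control array, 8.44 on the Met-ENK array and 8.41 with β-END(1-9). Its control and β-END(1-9) values were equal, and the Met-ENK value was 0.03 higher, or 1.02-fold. Ece2 (TC1100002055.rn.2), known mainly from neural tissue, had 5.31 on the control and β-END(1-9) arrays and 5.57 with Met-ENK, all within the background range. Its Met-ENK value differed by 0.26 from control, and by 0.20 after quantile normalization, at a level where no fold change is given.

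Lnpep encodes the insulin-regulated aminopeptidase, also called oxytocinase, a membrane enzyme held largely in intracellular vesicles that cleaves oxytocin, vasopressin and enkephalins. Its log2 signal (TC0100004589.rn.2) was 14.30 on the control array, 14.52 on the Met-ENK array and 14.19 with β-END(1-9). The Met-ENK array was thus the highest and the β-END(1-9) array the lowest, with differences from control of 0.22 (1.16-fold) and -0.11 (0.924-fold). The 2 peptides differed by 0.33, or 1.26-fold, and by 0.23 with the trend on genomic span removed. Of the 7519 genes that passed the filter, 10.6% had a higher difference than Lnpep between Met-ENK and control, and 10.4% between Met-ENK and β-END(1-9). Under each of 4 other scalings or adjustments (quantile normalization, centring on the median, and removal of the trend on level or on genomic span) the Met-ENK difference from control stayed positive, at 0.18 to 0.31, whereas the β-END(1-9) difference lay between -0.15 and 0.00.

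The puromycin-sensitive aminopeptidase Npepps (TC1000003680.rn.2), a cytosolic enzyme, had 12.15 on the control array, 12.15 on the Met-ENK array and 12.13 with β-END(1-9). The control and Met-ENK values were exactly equal, and the β-END(1-9) value was lower by 0.01. The direction of its differences changed with the scaling. Dpp3 (TC0100008148.rn.2), which takes dipeptides off the N-terminus of enkephalins, had 9.51 on the control array, 9.37 with Met-ENK and 9.51 with β-END(1-9). On the deposited scale it was the single member lower with Met-ENK than control, with a difference of -0.14 (0.908-fold) that lay between -0.16 and -0.05 under the alternatives, and 29.0% of the genes passing the filter had a lower difference.

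Thop1 encodes thimet oligopeptidase, a mainly cytosolic metallopeptidase of short peptides that converts some extended opioid peptides into enkephalins. Its log2 signal (TC0700002127.rn.2) was 9.32 on the control array, 9.32 on the Met-ENK array and 9.41 with β-END(1-9). The β-END(1-9) array was the highest, by 0.09 (1.07-fold), and the other arrays held the same value; 9.93% of genes passing the filter had a higher difference between β-END(1-9) and control. Prep, the prolyl oligopeptidase (TC2000000886.rn.2), a cytosolic serine peptidase that cuts after proline in short peptides, had 13.51 on the control array, 13.63 on the Met-ENK array and 13.51 with β-END(1-9). The control and β-END(1-9) values were equal, and the Met-ENK value was 0.12 higher (1.08-fold), with 18.5% of genes above it.

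The members were then set beside all genes that passed the filter. Between Met-ENK and control, 0 of the 6 members that passed the filter were at least 1.5-fold apart, where 6.72% of the 7519 genes were (0.692% higher and 6.02% lower). The 6 comprised 3 higher (Lnpep, Prep and Ece1), 1 lower (Dpp3) and 2 equal (Npepps and Thop1). Of the 7519 genes, 32.7% were higher, 45.7% lower and 21.6% equal. The members had a median difference of 0.02 against 0.00 for all genes. Between β-END(1-9) and control the count was 0 of 6 against 2.83% of genes (0.559% higher and 2.27% lower). Here 1 member was higher (Thop1), 2 were lower (Lnpep and Npepps) and 3 were equal (Ece1, Dpp3 and Prep). Of the 7519 genes, 18.8% were higher, 56.1% lower and 25.1% equal. The members had a median of 0.00 against -0.03. Between Met-ENK and β-END(1-9) the count was 0 of 6 against 4.59% (1.89% higher and 2.7% lower). Here 4 members were higher and 2 lower, with a median of 0.02 against 0.00. Of the 7519 genes, 45.4% were higher, 33.0% lower and 21.5% equal. With so few members, a count of 0 is near the background shares past 1.5-fold and is not a result about the peptidases. The comparisons share arrays in pairs, so their differences are not independent. Lower genes made up 89.7% of those past 1.5-fold with Met-ENK against control and 80.3% of those with β-END(1-9), or 78.8% and 64.8% once the arrays were quantile-normalized again. Without the filter these shares were 58.6% and 42.7%, so that with β-END(1-9) higher genes were then the more numerous, 397 against 296.

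**Figure D3:**
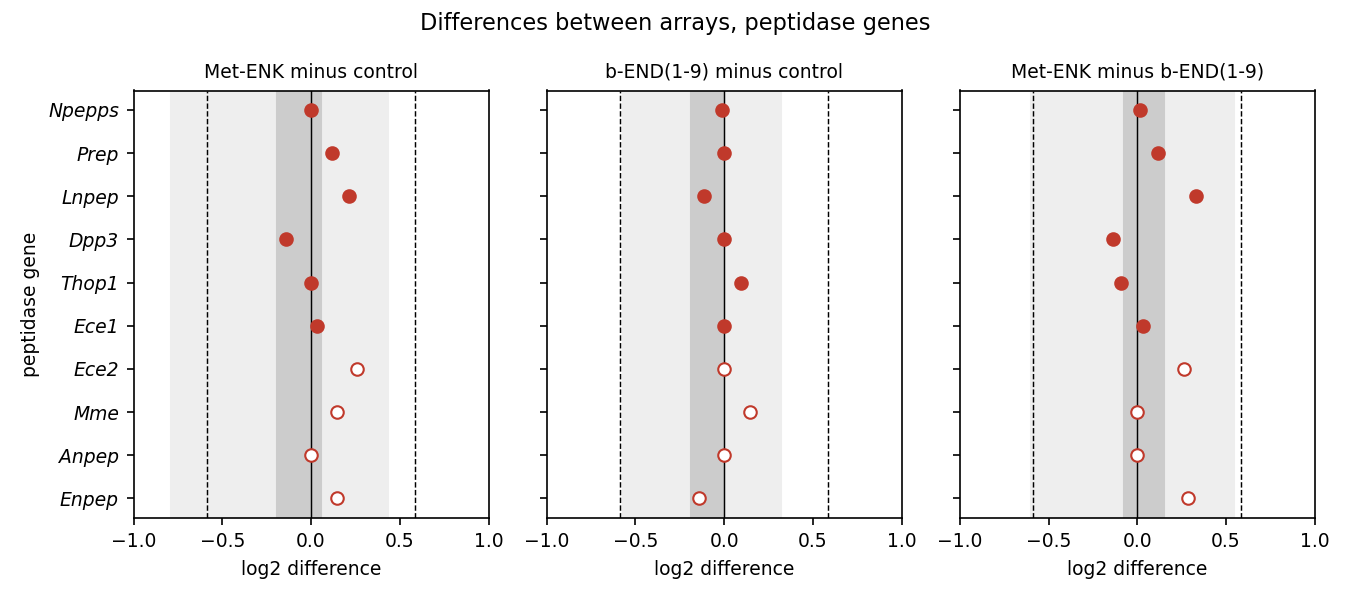
Log2 difference (horizontal axis) of each peptidase gene in the 3 comparisons between arrays, 1 array per condition; filled points are genes above background on all 3 arrays, open points genes within it, the dark and light grey bands hold the middle 50% and 95% of the genes that passed the filter, and dashed lines mark 1.5-fold. No member crosses the dashed lines, and Lnpep between the 2 peptides (0.33) lies furthest from 0.

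**Figure D4:**
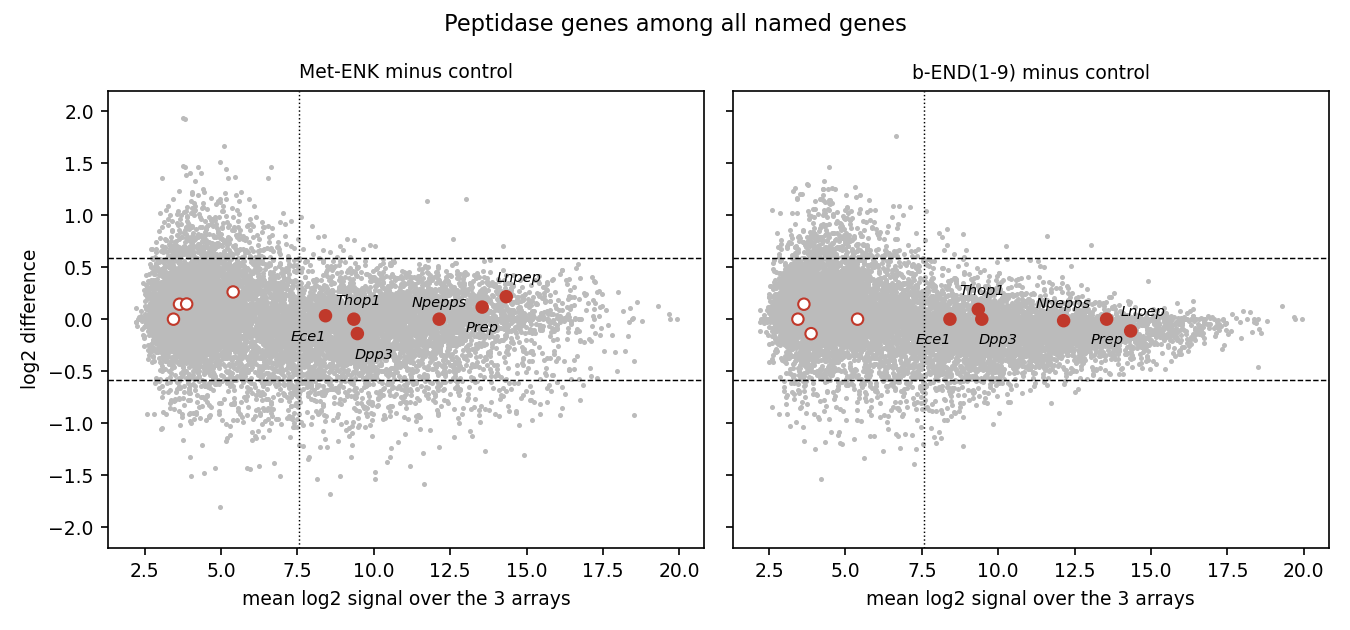
Log2 difference (vertical axis) against the mean log2 signal over the 3 arrays (horizontal axis) for all 15037 named genes (grey) and the 10 peptidase genes (red; filled, above background; open, within it; the 6 filled genes are labelled), with dashed lines at 1.5-fold and a dotted line at the highest background probe set, 7.57. The members lie inside the grey cloud in both panels.

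The members differ in genomic span, the length of the gene from start to end, and over all genes the Met-ENK difference varied with span. Split into 5 equal classes of span, the filtered genes of the shortest class (up to 8.05 kb) had a median difference of -0.09 between Met-ENK and control, those of the next class (8.05 to 16.9 kb) had -0.03, and those of the 3 longer classes had 0.00. Of the 6 members, Npepps (82.5 kb), Lnpep (95.9 kb), Prep (97.0 kb) and Ece1 (102 kb) were in the longest class, Dpp3 (23.8 kb) in the middle one and Thop1 (12.3 kb) in the second shortest. With the trend along span removed, the Met-ENK difference from control was 0.18 for Lnpep, 0.08 for Prep and 0.07 for Thop1. It was 0.00 for Ece1, -0.03 for Npepps and -0.11 for Dpp3. Between Met-ENK and β-END(1-9), the median was -0.02 in the shortest class and 0.07 in the longest. With that trend removed, Lnpep had 0.23 and Prep 0.02. The other members were negative: Ece1 -0.07, Npepps -0.08, Thop1 -0.09 and Dpp3 -0.17. The part of span in the members' differences was not tested.

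Related peptidases were read in the same way, from a list by family. Of 49 listed genes of related families, 41 were measured, 23 of them were above the background range on all 3 arrays and 24 passed the filter. The 4 genes listed beside the members for the M13 family of neprilysin (Mmel1, Phex, Kel and Ecel1) were within background, between 3.14 and 4.58. The member Ece1, of the same family, lay above background, as given before. In the M1 family of aminopeptidases, Lta4h (11.30 on the control array), Rnpepl1 (10.03) and Rnpep were above it and Trhde was not. The Thop1 relative neurolysin (Nln), which cuts neurotensin, had 8.95 on the control array, 8.95 with Met-ENK and 9.14 with β-END(1-9), while Mipep stayed just below the limit. Ide, the insulin-degrading enzyme, which also cleaves β-endorphin, had 13.40, 13.41 and 13.20 in the same order.

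The same 1.5-fold threshold was applied to these relatives. Among the 24 that passed the filter, 0 reached it between Met-ENK and control, 1 did between β-END(1-9) and control, and 0 did between the 2 peptides, beside the background shares of 6.72%, 2.83% and 4.59% given above. With 24 genes, these counts are near the shares and are not a result about the relatives. The 1 gene was Xpnpep3, a mitochondrial aminopeptidase for bonds before proline, with 10.32 on the control array, 9.96 with Met-ENK and 9.59 with β-END(1-9), a difference of -0.74 for the latter. The membrane carboxypeptidase gene Cpm, which did not pass the filter, had 3.92, 4.38 and 4.78 in the same order, a difference of 0.86 with β-END(1-9), all within the background range. Of all genes within that range on the 3 arrays, 6.2% were past 1.5-fold between β-END(1-9) and control. Against control, 12 of the 24 were lower with Met-ENK, 4 higher and 8 equal. With β-END(1-9), 14 were lower, 4 higher and 6 equal. Lower genes were 45.7% and 56.1% of all genes that passed the filter, so these counts are near the shares over all genes. The median differences of the 24 were -0.02 and -0.05, against 0.00 and -0.03 for all genes that passed the filter. Others above the background range on all 3 arrays included Xpnpep1 and Prepl of the prolyl and dipeptidyl peptidases, the carboxypeptidase genes Cpd and Ctsa, and the exopeptidase genes Metap2 and Tpp2. Prepl, a relative of Prep, was 0.42 higher with Met-ENK than on either other array, where its values were equal.

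**Figure D5:**
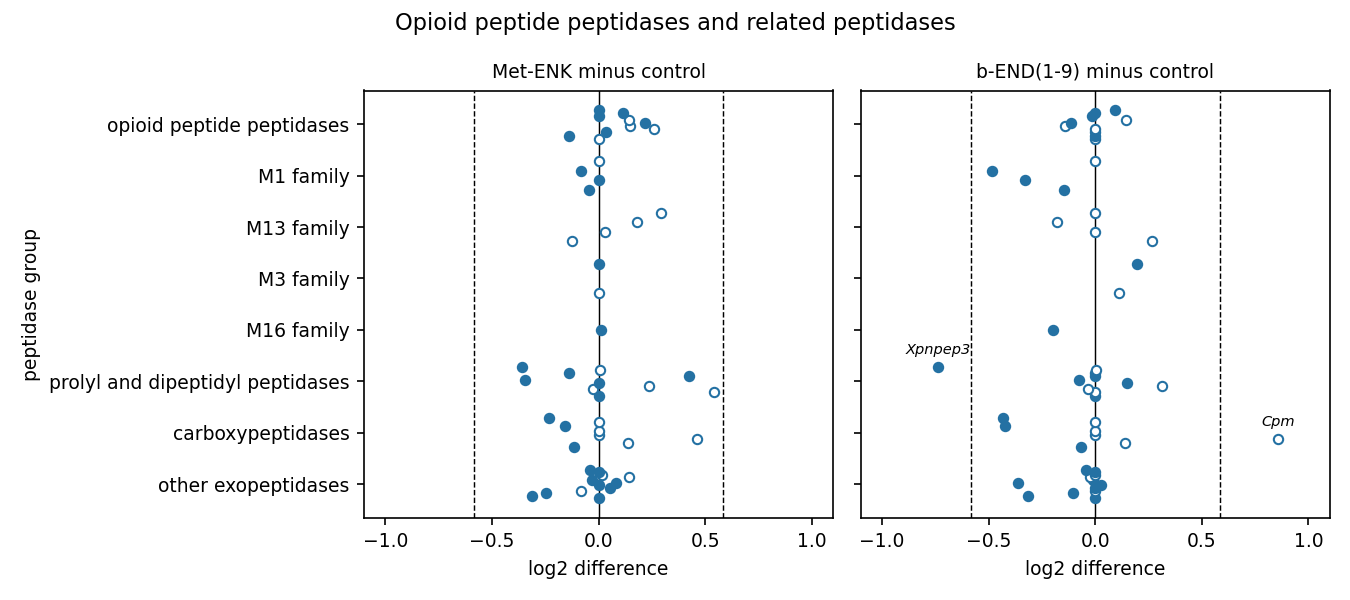
Log2 difference from control (horizontal axis) with Met-ENK (left) and β-END(1-9) (right) for the 10 members and 41 related peptidases by family (vertical axis). Height within a family has no meaning. Filled points are above background on all 3 arrays, open points not, and dashed lines mark 1.5-fold. Xpnpep3 (-0.74) and Cpm (0.86) cross the lines with β-END(1-9), and no gene does with Met-ENK.

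Genes for opioid precursors and receptors were read in the same cells. Of the 4 opioid precursor genes, Penk, which encodes the precursor of Met-ENK, was above background, with 10.05 on the control array, 9.24 on the Met-ENK array and 9.49 with β-END(1-9). Its difference of -0.81 passed 1.5-fold with Met-ENK, and that of -0.56 with β-END(1-9) did not. Of the genes passing the filter, 6.02% were at least 1.5-fold lower with Met-ENK than control. Pomc, the precursor of β-endorphin, Pdyn and Pnoc stayed within the background range, Pnoc with a difference of 0.78 for β-END(1-9). As given for Cpm, 6.2% of all genes within that range were past 1.5-fold between β-END(1-9) and control. Of 6 receptor genes, Ogfr and Ackr3 were above the background range and 0 passed 1.5-fold.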

How the data were processed

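The data are the authors' deposited log2 signals of 3 whole-transcript arrays, with a single value for each probe set. Per the submitters' processing notes, the tools were Affymetrix Expression Console, Transcriptome Analysis Console and RMA, which corrects background, quantile-normalizes and summarises probes. Their versions and the array's genome build were not given in the sources used here. RNA was extracted with TriPure and labelled with the WT PLUS kit, per the labels' protocols.

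Groups came from the sample titles. The platform annotation names 15049 of 23188 transcript clusters, for 15037 genes, and the highest of several probe sets was kept for 10 genes. The filter kept 7519 genes with a mean log2 signal at or above the median. Differences of log2 signals were computed with Python 3.11.15 and pandas 2.3.3, and trends were removed by lowess (statsmodels 0.14.6). A gene was called at 1.5-fold (0.58 on the log2 scale), and no test was run with 1 array per group. The calling and scaling steps were run on simulated data, with changes well past the threshold and less spread than the real differences. That run checks the code and says nothing of differences as small as those of the members. Named genes were all members and, from each list, those past 1.5-fold and the 2 with the highest mean signal, plus the 5 genes nearest the member with the widest range. Some other listed genes are named for their level against background. The members and lists were chosen with earlier results of these data known. The list with the inhibitor precursor Vcsa1 had 0 measured genes. Genes absent from the naming were not analysed here.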

Additional observations from a re-analysis of the deposited data

How the results depend on the processing

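No member passed 1.5-fold under quantile normalization, centring each array on its median, or removing the trend on level or on genomic span. The largest of the 30 member differences under any alternative was 0.34. The other alternatives run could not raise the count of members. Dropping the filter leaves each difference as it was, and a 2-fold threshold is stricter. The mean of several probe sets cannot move members with 1 probe set each. The direction of 9 of the 30, all for Npepps, Ece1, Dpp3, Thop1 or Prep, was positive under some settings and negative under others. The 6 genes above background stayed 6 with other scalings and with the median of the background probe sets as the limit. Counts over all genes moved more. Without the filter, 448 genes were at least 1.5-fold higher and 633 lower with Met-ENK than control, 397 were higher and 296 lower with β-END(1-9), 377 were higher and 459 lower with Met-ENK than with β-END(1-9), and 2 related peptidases were past 1.5-fold with β-END(1-9). At 2-fold the counts of genes were 5 higher and 56 lower with Met-ENK, 5 higher and 16 lower with β-END(1-9), 6 higher and 16 lower between the peptides, and 0 related peptidases with β-END(1-9). Quantile normalization gave 91 genes higher with Met-ENK. The cause of these changes was not tested beyond the wider set of genes and the stricter threshold themselves. No paired analysis was possible because each condition has 1 array. Signal over background limits what can be said of Mme, Anpep, Enpep and Ece2.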

Other observations

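Precursor genes of other peptides that these peptidases cut were read on the same arrays. Of 18 listed, 16 were measured and 2 were above the background range, Edn1 and Nppb. Edn1, the endothelin-1 precursor whose product is matured by endothelin-converting enzymes, had 9.14 on the control array, 9.19 on the Met-ENK array and 8.92 with β-END(1-9). Its signal was therefore above background in the same cells as that of Ece1. Nppb, the precursor of a natriuretic peptide, had 11.83, 10.89 and 11.43 in the same order. The Met-ENK array was the lowest, with a difference of -0.93 from control, and the difference with β-END(1-9), -0.40, was below 1.5-fold. As given for Penk, 6.02% of the genes passing the filter were at least 1.5-fold lower with Met-ENK than control. Edn2 (0.71 with β-END(1-9)) and Grp (0.82 with Met-ENK and 0.73 with β-END(1-9)), which encodes the itch-related gastrin-releasing peptide, passed 1.5-fold within the background range. Of all genes within that range on the 3 arrays, 7.52% were past 1.5-fold between Met-ENK and control, 419 higher and 227 lower. Between β-END(1-9) and control 6.2% were, 376 higher and 157 lower.

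Among markers of other cell types, the genes past 1.5-fold were all within the background range: Twist2 (0.71), Kdr (0.68) and Vwf (0.72) were higher with β-END(1-9) than control, and Vwf (-0.72) and Tyrp1 (-0.61) were lower with Met-ENK than with β-END(1-9). Of all genes within that range on the 3 arrays, 6.2% were past 1.5-fold between β-END(1-9) and control, 376 higher and 157 lower. Between the peptides 6.35% were, 262 higher and 284 lower. Nothing is read from these markers. Among the 9 keratinocyte markers 0 passed 1.5-fold. Of the genes passing the filter, 6.72% did with Met-ENK and 2.83% with β-END(1-9) against control, and 4.59% between the peptides.

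The 5 named genes closest to Lnpep by Euclidean distance over the 3 log2 signals were Mapk6 (0.036), Acly (0.069), Gpd2 (0.087), Mcm4 (0.095) and Atp2b1 (0.10). The distance rests on 3 arrays and on the signals of different probe sets, which are not comparable as levels, so nothing is read from the likeness.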
